A study of Mus musculus with 6 samples.

Results

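The genes of mitochondrial fatty acid oxidation and of the carnitine shuttle that feeds it were followed in the livers of mice kept on 2 diets. The genes were taken by symbol from a list of 32, together with their regulators, genes linked to the nuclear receptor PPARalpha and medium-chain acyl-CoA synthetases. A gene counted as measured if a probe set of the array carried its symbol and no other. This held for 30 of the 32, out of 18193 genes measured on the array, through 51 probe sets. Cpt1b, the muscle form of carnitine palmitoyltransferase 1, and Ucp2, a mitochondrial carrier of the uncoupling protein family, had no such probe set and were not analysed here. All 30 passed the filter on low levels, which asks that a gene exceed the 40th percentile of probe set levels in 3 or more arrays.

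Male C57BL/6 mice, an inbred laboratory strain with no transgene named in the labels, were put at 8 weeks of age on a normal diet or on a high-fat diet that drew 60% of its calories from fat, and were kept on it for 12 weeks. Whole liver RNA of 6 mice per diet was combined in pools, read here as 2 mice per pool, and hybridised to Affymetrix whole-genome mouse arrays. There were 6 arrays, 3 per diet, each on its own pool, so the spread reported is that between pools and not between single mice. Levels are given on the log2 scale, on which a step of 1 doubles the signal. Each difference is the high-fat mean less the normal diet mean, followed after ± by its standard error (SE) from limma. A gene is called when its p-value, adjusted by the Benjamini-Hochberg method over all 14071 genes tested, lies below 0.05.

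Long-chain fatty acids reach the mitochondrial matrix as carnitine esters, and are then shortened in repeated rounds of dehydrogenation, hydration, a second dehydrogenation and thiolysis. The electrons of the first dehydrogenation pass through the electron transfer flavoprotein to the respiratory chain. In liver the pathway supplies energy and ketone bodies in fasting, and PPARalpha is known to drive many of its genes when fatty acids are plentiful.

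Most of these genes were somewhat higher on the high-fat diet, but few passed the test. Acad8, which encodes isobutyryl-CoA dehydrogenase of valine breakdown, rose 1.45-fold. Acadsb, the short/branched-chain acyl-CoA dehydrogenase gene, fell 1.44-fold, and Acsm1, a medium-chain acyl-CoA synthetase gene, also fell 1.44-fold. The other 27 genes were not called. Of all 14071 genes, 1070 were called, or 7.60% (826 higher and 244 lower, and 596 higher and 301 lower after a further quantile normalization). The 3 of 30 called here (10.0%) are near that background. Called higher were 5.87% of all genes and 3.33% of these 30, and called lower 1.73% and 6.67%. With 1 normal diet array left out, 0, 6 and 3 of the 30 were called (without normal diet 1, 2 and 3), against 7.57%, 6.74% and 8.85% of all genes. Without high-fat 1, 2 or 3 none was called by limma (8 at an unadjusted p below 0.05 each time), against 1.93%, 1.54% and 1.20% of all genes.

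The difference lay above 0 in 27 of the 30 genes, against 50.5% of all genes tested. The median difference was 0.32, or 1.25-fold, against 0.003 over all genes. The values ran from -0.53 to 1.61. Quantile normalization, cyclic loess and array weights lowered the median to 0.22, 0.19 and 0.24 (over all genes -0.030, 0.001 and 0.007). After quantile normalization or cyclic loess 25 of the 30 genes lay above 0. All 3 high-fat arrays lay above all 3 normal diet arrays in 15 of the 30 genes, against 21.1% of all genes. They lay below them in 2 (6.67%), Acadsb and Acsm1, against 14.7%. At an unadjusted p below 0.05 there were 14 of the 30 genes (46.7%), against 27.6% of all genes.

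Much of this rested on 1 array. Normal diet 3 was the lowest of the 6 arrays in 26 of the 30 genes (86.7%), against 28.1% of all genes tested. Its median deviation from a gene's mean over the 6 arrays was -0.51, while normal diet 1 and 2 lay at -0.017 and 0.031 and the high-fat arrays between 0.13 and 0.19. The same median over all genes was 0.0002 in normal diet 3. The median standard deviation (SD) of these genes was 0.310 among normal diet arrays and 0.0936 among high-fat arrays, against 0.166 and 0.117 over all genes. Without normal diet 3 the median difference was 0.14 and 25 of 30 genes lay above 0. The groups then did not overlap, with high-fat higher, in 15 genes, against 25.4% of all genes tested. With high-fat lower this held in 3, against 19.1% of all genes. Leaving out an array cannot make separate groups overlap, so these counts could not fall. Normal diet 3 had the highest median level of the 6 arrays, 4.05 over non-control probe sets, against 3.96 to 4.01 in the others. Its 3' minus 5' log2 difference for the Gapdh control probe sets was 0.006, against 0.36 in normal diet 1 and -0.19 to 0.009 in the other arrays, and for the beta-actin control probe sets it was 1.12, against 1.59 in normal diet 1 and 1.02 to 1.23 in the others. What set normal diet 3 apart in these genes was not tested.

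**Figure D1:**
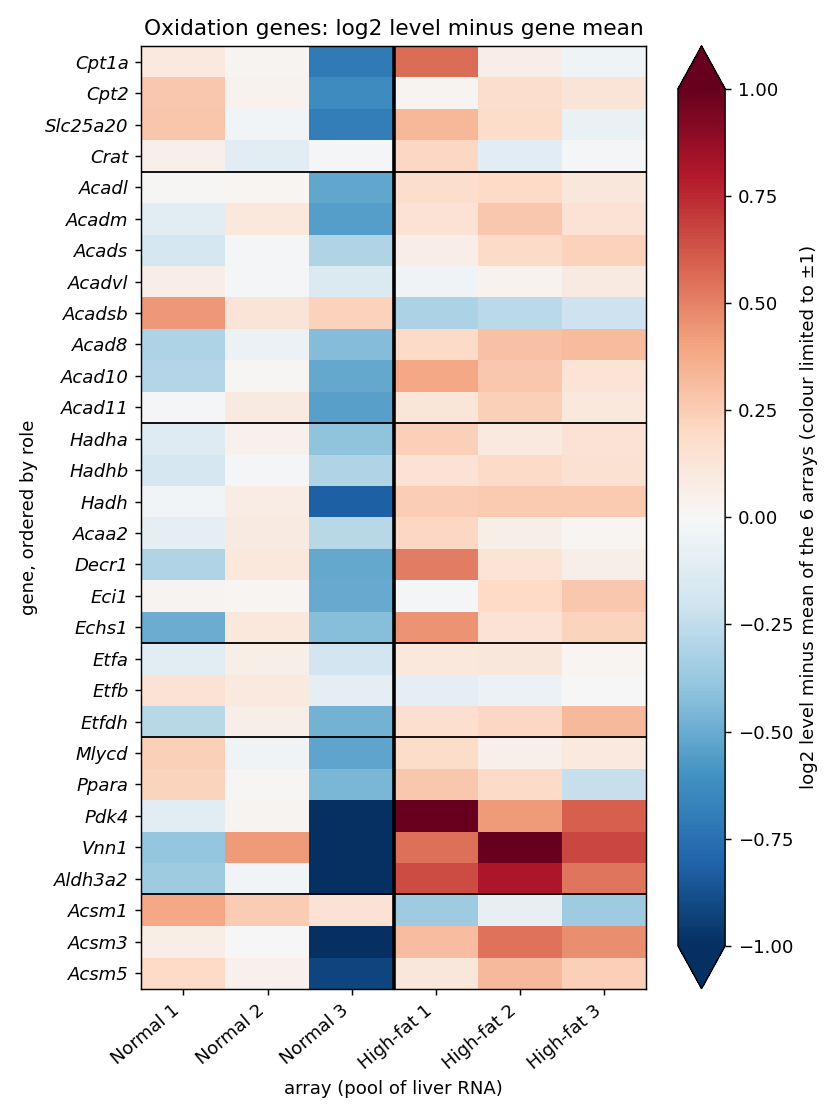
Heat map of the log2 level of the 30 measured genes (rows, by role) in each array (columns, 3 per diet) minus the gene's mean over the 6 arrays, with the colour limited at 1 in either direction. Blue cells run down the column of normal diet 3, which is the lowest array in 26 of 30 genes, and Acadsb and Acsm1 are the rows with all high-fat arrays below all normal diet arrays.

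**Figure D2:**
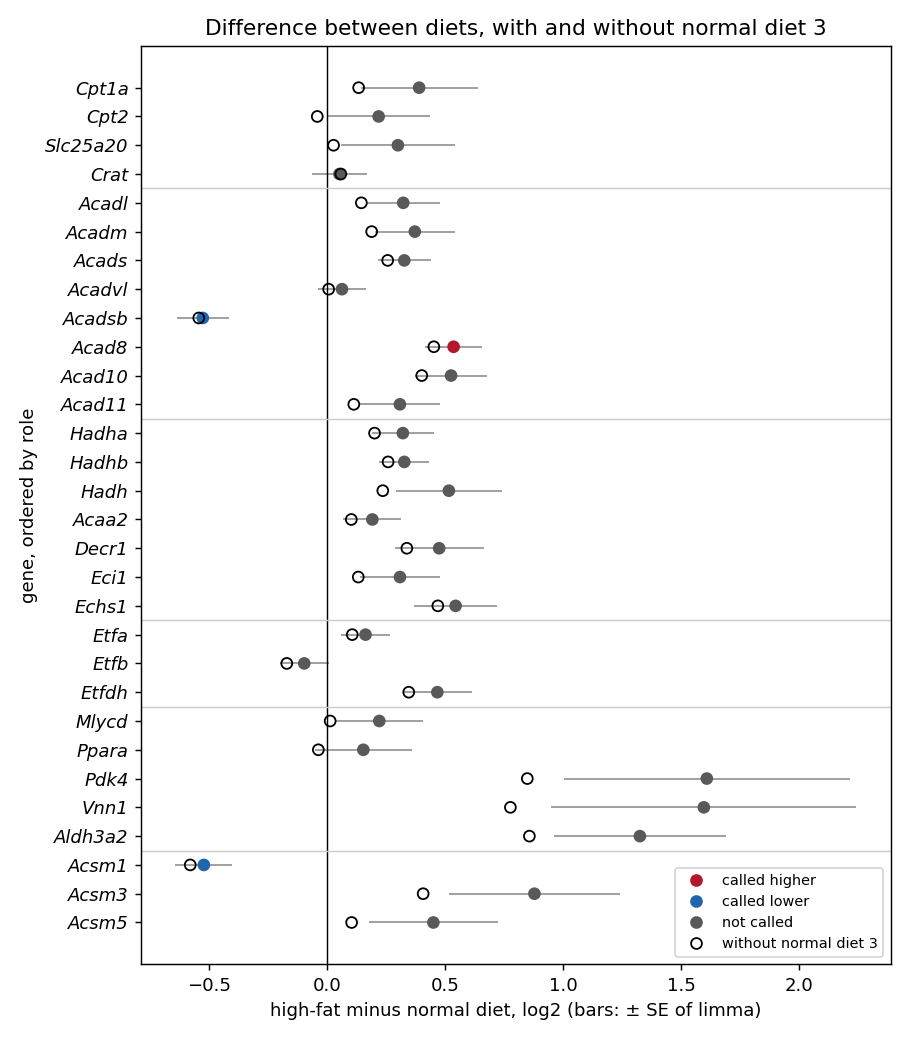
Difference between diets for each of the 30 genes (filled points, log2, bars ± SE of limma, 3 arrays per diet) and the same difference without normal diet 3 (open circles). Acad8 is the point called higher, Acadsb and Acsm1 are those called lower, and Vnn1 and Pdk4 have the widest gaps between the filled and the open point.

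The tissue label was checked against markers of liver cells. The mean log2 level of 6 hepatocyte markers, among them albumin (Alb) and transthyretin (Ttr), was 13.60 to 13.65 in normal diet arrays. It was 13.51 to 13.55 in high-fat arrays and 13.64 in normal diet 3. Alb and Ttr differed by 0.07 and 0.13, and Apoa1, Cps1, Serpina1c and Tat by -0.05, -0.28, -0.22 and -0.26. Of these 6 markers 0 were called by limma. An unadjusted p below 0.05 was found for 3, Cps1, Serpina1c and Tat, all lower, against 27.6% of all genes. After cyclic loess Cps1 was called lower (-0.40, limma adjusted p = 0.0498). Of 8 macrophage and Kupffer cell markers 5 were called higher. The mean level of the 8 was 7.20 to 7.68 in normal diet and 7.81 to 8.01 in high-fat arrays. Among them Cd14 and Marco went the other way, by -0.77 and -0.06, and were not called. Of 6 endothelial markers 1 was called higher (means 6.42 to 6.67 and 6.87 to 6.97), and of 6 stellate cell markers 2 (6.49 to 6.75 and 6.99 to 7.19). Without high-fat 1, 2 and 3 the macrophage count was 2, 1 and 1, the endothelial count 0 each time and the stellate count 1 each time. Quantile normalization or cyclic loess left 1 stellate call, as did leaving out normal diet 1, and without normal diet 2 there were 2 endothelial calls. These 4 settings, and trend and robust variance, left 4 macrophage markers called higher. Without normal diet 1, Cd14 was called lower (-1.40, limma adjusted p = 0.0154). Of 5 adipocyte markers 1 passed the level filter and of 5 muscle markers 2, and none of these 3 was called. Whole liver was hybridised, so a change in the share of a cell type and a change of RNA per cell cannot be told apart. The part of the macrophage, endothelial and stellate shifts in the differences reported here was not tested.

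In the carnitine shuttle none of 4 genes was called by limma, and none had an unadjusted p below 0.05. Cpt1a encodes the liver form of carnitine palmitoyltransferase 1, the outer membrane enzyme that commits long-chain acyl groups to oxidation. Its levels were 9.96, 9.89 and 9.16 in normal diet 1 to 3 and 10.42, 9.93 and 9.82 in high-fat 1 to 3. The diets overlapped, with normal diet 3 the lowest and high-fat 1 the highest array. The difference was 0.39 ± 0.25 (adjusted p = 0.341) and fell to 0.13 without normal diet 3. Its other probe sets differed by 0.36 and 0.29.

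The sequence around the Cpt1a start is shown because this gene sets the entry into the pathway. It is taken from RefSeq on build GRCm38.p6, chr19:3323051-3323350, plus strand, from 250 bases before the start to 50 after it. Capitals mark the letters AGGTCA, the half-site that PPARalpha and many other nuclear receptors recognise, here read on the opposite strand and beginning 94 bases upstream of the start.
Cpt1a: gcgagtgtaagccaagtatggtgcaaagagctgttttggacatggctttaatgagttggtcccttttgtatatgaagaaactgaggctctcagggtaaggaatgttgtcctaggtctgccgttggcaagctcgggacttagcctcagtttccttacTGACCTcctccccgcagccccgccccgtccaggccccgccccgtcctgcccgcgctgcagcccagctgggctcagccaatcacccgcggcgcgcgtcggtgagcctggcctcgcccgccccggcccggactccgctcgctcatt

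Such windows were used for 27 of the 32 listed genes. Windows of listed genes on a particular chromosome were excluded, while that chromosome was kept among all windows. The half-site AGGTCA, searched on both strands, was found in 5 of the 27 (18.5%), Cpt1a, Acadm, Acadvl, Echs1 and Acsm1, and in 16.3% of all 32851 promoter windows. The direct repeat AGGTCANAGGTCA, the textbook arrangement for PPARalpha with its partner RXR, was found in 0 of the 27 and in 0.0396% of all windows. Its looser form AGGNCANAGGNCA was in 0 and 0.381%, and TCAAGGTCA, the motif of oestrogen-related receptors, in 0 and 0.423%. The direct repeat and the last motif contain the half-site, and the looser form contains it only where its N is a T. The matches cover these letters in this window only, and sites farther away or with other letters were not searched.

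Slc25a20 encodes the carnitine-acylcarnitine carrier of the inner membrane. It lay at 10.63, 10.33 and 9.66 in the normal diet arrays and 10.69, 10.54 and 10.29 in the high-fat arrays, with overlap. The difference was 0.30 ± 0.24 (adjusted p = 0.454), or 0.026 with normal diet 3 left out. Cpt2, the gene of the inner membrane transferase, differed by 0.22 ± 0.22 (adjusted p = 0.545) and by -0.043 without normal diet 3.

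Crat encodes carnitine acetyltransferase, which handles short acyl groups. Its brightest probe set lay at 8.21, 8.05 and 8.15 on the normal diet and at 8.37, 8.05 and 8.14 on the high-fat diet, a difference of 0.05 ± 0.12. A second probe set lay at 6.63, 6.21 and 5.08 and at 7.20, 7.03 and 7.03, so that all high-fat arrays were above all normal diet arrays. It differed by 1.11 ± 0.35 and was not called (adjusted p = 0.108 in a fit over 23408 probe sets). The remaining one differed by -0.031. With probe sets that carry a suffix left out, the second one stands for the gene, at 1.11.

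Of the 8 acyl-CoA dehydrogenase genes 1 rose and 1 fell, with 6 not called. The groups did not overlap in 7 of them, 6 with high-fat higher. Of all genes 21.1% did not overlap with high-fat higher and 14.7% with high-fat lower. Acadm, the medium-chain dehydrogenase gene, lay at 11.81, 12.03 and 11.37 on the normal diet and at 12.06, 12.19 and 12.07 on the high-fat diet. The high-fat arrays were all higher, by a narrow gap to normal diet 2. The difference was 0.37 ± 0.17 (adjusted p = 0.204), and it was 0.19 once normal diet 3 was left out. Acads, the short-chain gene, lay at 9.57, 9.73 and 9.44 and at 9.81, 9.93 and 9.97. This was a difference of 0.33 ± 0.11 without overlap and without a call (adjusted p = 0.118). Acadl, the long-chain gene, differed by 0.32 ± 0.16 (adjusted p = 0.230), or by 0.14 with normal diet 3 left out. Acadvl, which encodes the very long-chain dehydrogenase of the inner membrane, differed by 0.06 ± 0.10 (adjusted p = 0.718), and by -0.039 and -0.069 after quantile normalization and cyclic loess. Leaving out normal diet 3 gave 0.005 for Acadvl.

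Acad8 lay at 7.36, 7.62 and 7.24 on the normal diet and at 7.87, 7.97 and 7.99 on the high-fat diet. Each high-fat array was above each normal diet array. The difference was 0.54 ± 0.12 (limma adjusted p = 0.0416), and its dimmer probe set differed by 0.31 ± 0.16 without a call. The call did not hold under either rescaling: quantile normalization gave 0.39 (adjusted p = 0.0754) and cyclic loess 0.42 (adjusted p = 0.0669). Averaging both Acad8 probe sets gave 0.42 (adjusted p = 0.0957), and variances fitted with trend and robust options gave an adjusted p of 0.0505. With normal diet 1 left out the difference was 0.51 (adjusted p = 0.0784), and with normal diet 3 left out 0.45 (adjusted p = 0.0576). Leaving out high-fat 1, 2 or 3 gave adjusted p-values of 0.117, 0.145 and 0.145, and a replicate block gave 0.0696.

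Acadsb moved the other way. Its product acts on methyl-branched acyl groups from isoleucine. It lay at 9.61, 9.31 and 9.41 on the normal diet and at 8.86, 8.91 and 8.97 on the high-fat diet, again without overlap, and normal diet 3 was not its lowest array. The difference was -0.53 ± 0.11 (limma adjusted p = 0.0336), and it was -0.55 (adjusted p = 0.0361) with normal diet 3 left out. The call rests on a probe set of the kind that can pick up other transcripts, marked by an x in its name. The call was lost when normal diet 1 was left out (-0.44, adjusted p = 0.0577) and when a replicate block was added (adjusted p = 0.0696). It was also lost when high-fat 1, 2 or 3 was left out, with adjusted p-values of 0.126, 0.121 and 0.104.

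Promoter windows of these dehydrogenase genes are shown because they were the pair called in opposite directions. They come from RefSeq on GRCm38.p6, with Acad8 at chr9:26999500-26999799 on the minus strand and Acadsb at chr7:131410351-131410650 on the plus strand. Neither holds the half-site AGGTCA, so no letters are in capitals. Acad8 has 18 CpG pairs and 58.3% G and C, and Acadsb 29 and 66.0%, against a median of 7 CpG pairs in all windows and 17 in those of the listed genes.
Acad8: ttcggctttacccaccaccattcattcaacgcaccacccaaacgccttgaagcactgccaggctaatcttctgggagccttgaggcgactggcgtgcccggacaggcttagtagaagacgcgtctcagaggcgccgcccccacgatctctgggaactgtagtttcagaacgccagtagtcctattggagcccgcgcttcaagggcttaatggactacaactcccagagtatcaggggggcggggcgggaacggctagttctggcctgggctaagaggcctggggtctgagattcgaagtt
Acadsb: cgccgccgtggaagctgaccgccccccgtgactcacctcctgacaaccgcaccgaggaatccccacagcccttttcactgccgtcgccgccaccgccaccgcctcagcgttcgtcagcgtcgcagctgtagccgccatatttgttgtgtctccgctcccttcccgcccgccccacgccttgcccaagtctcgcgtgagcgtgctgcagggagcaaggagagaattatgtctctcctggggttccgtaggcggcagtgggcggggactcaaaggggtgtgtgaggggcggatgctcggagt

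The 2 remaining dehydrogenase genes have less settled substrates. Acad10 lay at 5.89, 6.19 and 5.67 on the normal diet and at 6.57, 6.44 and 6.31 on the high-fat diet, without overlap. The difference was 0.52 ± 0.15 (adjusted p = 0.0791), and Acad10 was called without normal diet 2 (0.66, adjusted p = 0.0395). Its other probe set went the other way, by -0.32 ± 0.15, with 6.11, 6.00 and 6.56 against 5.92, 5.92 and 5.87, neither was called, and the mean of both probe sets differed by 0.10. Acad11 differed by 0.31 ± 0.17 (adjusted p = 0.283), or by 0.11 with normal diet 3 left out.

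Of the 7 genes of the later steps and auxiliary enzymes none was called by limma. At an unadjusted p below 0.05 there were 4, against 27.6% of all genes. The groups did not overlap in 4, all with high-fat higher, against 21.1% of all genes. Hadha and Hadhb encode the subunits of the trifunctional protein, which carries out the later steps for long chains. Hadha lay at 9.23, 9.40 and 8.95 on the normal diet and at 9.59, 9.45 and 9.49 on the high-fat diet. Hadhb lay at 10.75, 10.90 and 10.62 and at 11.06, 11.11 and 11.07. Both genes had normal diet 3 as the lowest and normal diet 2 as the highest normal diet array, and neither overlapped between diets. The differences were 0.32 ± 0.13 for Hadha (adjusted p = 0.170) and 0.33 ± 0.11 for Hadhb (adjusted p = 0.102), and 0.20 and 0.26 without normal diet 3. A pair of other Hadhb probe sets differed by 0.12 and -0.067.

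These subunit genes lie head to head. Their starts are 273 bases apart on opposite strands, and their promoter windows share 228 bases. The Hadhb window is shown for that reason, from RefSeq on GRCm38.p6, chr5:30155003-30155302, plus strand. Capitals mark the part shared with the Hadha window, chr5:30154931-30155230, minus strand.
Hadhb: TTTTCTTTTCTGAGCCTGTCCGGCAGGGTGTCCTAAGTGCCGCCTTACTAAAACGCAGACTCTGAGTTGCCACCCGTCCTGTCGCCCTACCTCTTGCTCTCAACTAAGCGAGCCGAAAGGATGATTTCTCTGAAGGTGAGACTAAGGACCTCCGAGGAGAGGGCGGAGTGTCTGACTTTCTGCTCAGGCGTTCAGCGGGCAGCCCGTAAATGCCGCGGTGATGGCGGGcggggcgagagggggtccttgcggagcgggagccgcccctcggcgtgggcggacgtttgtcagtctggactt

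Echs1, the gene of the short-chain enoyl-CoA hydratase, lay at 10.48, 11.09 and 10.56 on the normal diet and at 11.43, 11.13 and 11.20 on the high-fat diet. The gap between normal diet 2 and high-fat 2 was small, and normal diet 1 was the lowest array. The difference was 0.54 ± 0.18 (adjusted p = 0.103), and Echs1 was called without normal diet 2 (0.73, adjusted p = 0.0289). Hadh, which encodes the short-chain 3-hydroxyacyl-CoA dehydrogenase, lay at 12.46, 12.56 and 11.67 and at 12.74, 12.75 and 12.75. The high-fat arrays were nearly equal, and normal diet 3 was far below the other normal diet arrays. The difference was 0.52 ± 0.22 (adjusted p = 0.187), or 0.23 with normal diet 3 left out. Its other probe sets differed by 0.51 and 0.78.

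Decr1 and Eci1 encode auxiliary enzymes for unsaturated chains. Decr1 differed by 0.47 ± 0.19 (adjusted p = 0.159), with normal diet 2 at 10.59 above high-fat 3 at 10.54, and Eci1 by 0.31 ± 0.17 (adjusted p = 0.273). Acaa2, the gene of the mitochondrial thiolase, differed by 0.19 ± 0.12 (adjusted p = 0.346), and its other probe sets by 0.13 and 0.22. With normal diet 3 left out, Eci1 differed by 0.13 and Acaa2 by 0.10.

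Of the 3 electron transfer genes none was called by limma, and 1 had an unadjusted p below 0.05, against 27.6% of all genes. Etfdh, the gene of the oxidoreductase that hands electrons to ubiquinone, lay at 9.60, 9.94 and 9.41 on the normal diet and at 10.05, 10.09 and 10.21 on the high-fat diet. All high-fat arrays were higher, and the difference of 0.47 ± 0.15 was not called (adjusted p = 0.0961) except without normal diet 2 (0.61, adjusted p = 0.0380). Etfa, the alpha subunit gene of the flavoprotein, differed by 0.16 ± 0.10 (adjusted p = 0.346). Etfb, the beta subunit gene, lay at 11.40, 11.36 and 11.16 and at 11.16, 11.20 and 11.25, a difference of -0.10 ± 0.10 with overlap (adjusted p = 0.570). Leaving out normal diet 3 gave 0.11 for Etfa and -0.17 for Etfb.

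The regulators and PPARalpha-linked genes held the largest differences and the widest spread, and none of the 5 was called by limma. At an unadjusted p below 0.05 there were 3, against 27.6% of all genes. Pdk4 encodes a pyruvate dehydrogenase kinase that spares glucose when fat is burned. It lay at 4.91, 5.05 and 2.70 on the normal diet and at 6.41, 5.45 and 5.62 on the high-fat diet. Normal diet 3 stood far below the rest, under the 40th percentile of that array (3.59). The difference was 1.61 ± 0.61 (adjusted p = 0.142), and it was 0.85 once normal diet 3 was left out.

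Vnn1 encodes vanin 1, a pantetheinase that recycles a precursor of coenzyme A. It lay at 8.99, 9.80 and 6.94 on the normal diet and at 9.93, 10.56 and 10.04 on the high-fat diet. All high-fat arrays were higher, with normal diet 2 just below high-fat 1. The difference was 1.60 ± 0.65 (adjusted p = 0.164), or 0.78 with normal diet 3 left out. The other Vnn1 probe set differed by 2.02 ± 0.73.

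Aldh3a2, the gene of fatty aldehyde dehydrogenase, lay at 9.38, 9.71 and 8.14 on the normal diet and at 10.39, 10.55 and 10.27 on the high-fat diet. All high-fat arrays were higher, and the SD was 0.137 among them and 0.828 among the normal diet arrays. The difference was 1.33 ± 0.37 (adjusted p = 0.0713). Aldh3a2 was called without normal diet 2 (1.64), without normal diet 3 (0.86, adjusted p = 0.0115) and with array weights.

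Ppara, the gene of the receptor itself, lay at 9.42, 9.21 and 8.74 on the normal diet and at 9.47, 9.39 and 8.96 on the high-fat diet. The diets overlapped, and the difference was 0.15 ± 0.21 (adjusted p = 0.656), or -0.038 without normal diet 3. Its other probe sets differed by 0.32 and 0.27. Mlycd encodes malonyl-CoA decarboxylase, which removes the inhibitor of carnitine palmitoyltransferase 1, and differed by 0.22 ± 0.19 (adjusted p = 0.475), or 0.012 without normal diet 3.

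**Figure D3:**
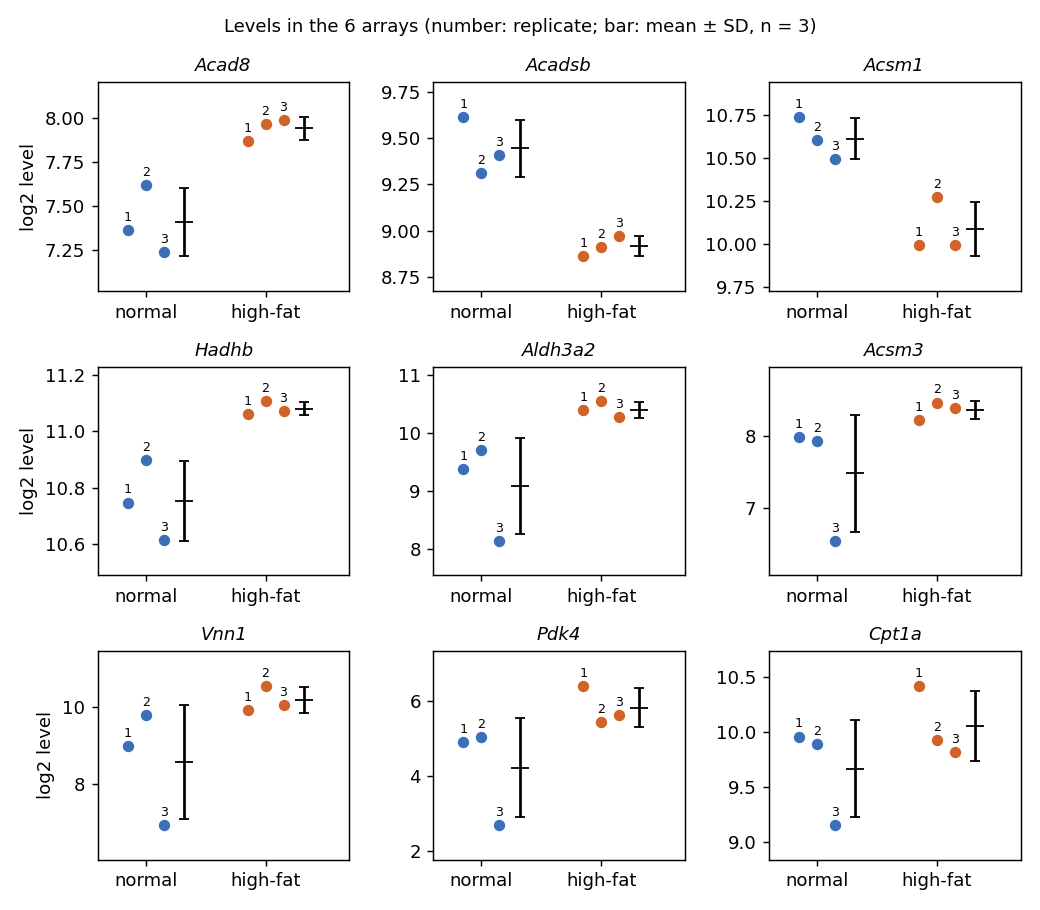
Log2 level (vertical axis, with its own range in each panel that does not start at 0) in each array for 9 genes, by diet, with the replicate number at each point and the mean ± SD of 3 arrays beside it. Acadsb and Acsm1 have all high-fat points below the normal diet points, and in other panels normal diet 3 stands far below normal diet 1 and 2, at 8.14 for Aldh3a2, 6.54 for Acsm3, 6.94 for Vnn1 and 2.70 for Pdk4.

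The medium-chain acyl-CoA synthetases activate medium-chain fatty acids inside mitochondria, and of the 3 genes 1 fell and 2 were not called. Acsm1 lay at 10.74, 10.60 and 10.50 on the normal diet and at 10.00, 10.27 and 9.99 on the high-fat diet. All high-fat arrays were lower. The difference was -0.52 ± 0.12 (limma adjusted p = 0.0433), and it was -0.58 (adjusted p = 0.0318) with normal diet 3 left out. Median centring ended the Acsm1 call (-0.48, adjusted p = 0.0623), as did the fit over probe sets (adjusted p = 0.0509) and a replicate block (adjusted p = 0.0744). With normal diet 1 or 2 left out the difference was -0.46 and -0.53 (adjusted p = 0.0829 and 0.0834). Leaving out high-fat 1, 2 or 3 gave adjusted p-values of 0.152, 0.0712 and 0.155.

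Acsm3 lay at 7.99, 7.93 and 6.54 on the normal diet and at 8.23, 8.47 and 8.39 on the high-fat diet. All high-fat arrays were higher, and most of the difference of 0.88 ± 0.36 (adjusted p = 0.168) came from normal diet 3, since it was 0.41 without that array. Acsm5 lay at 8.25, 8.10 and 7.13 and at 8.16, 8.37 and 8.29, with overlap, and differed by 0.45 ± 0.27 (adjusted p = 0.321), or 0.10 without normal diet 3. Whether Acsm1 differed from its relatives in its response was not tested. The Acsm1 promoter window is shown as that of the family member that was called, from RefSeq on GRCm38.p6, chr7:119617562-119617861, plus strand. Capitals mark the half-site AGGTCA, read on the opposite strand and beginning 107 bases upstream of the start. The windows of Acsm1, Acsm3 and Acsm5 hold 2, 7 and 1 CpG pairs, at or below the median of all windows.
Acsm1: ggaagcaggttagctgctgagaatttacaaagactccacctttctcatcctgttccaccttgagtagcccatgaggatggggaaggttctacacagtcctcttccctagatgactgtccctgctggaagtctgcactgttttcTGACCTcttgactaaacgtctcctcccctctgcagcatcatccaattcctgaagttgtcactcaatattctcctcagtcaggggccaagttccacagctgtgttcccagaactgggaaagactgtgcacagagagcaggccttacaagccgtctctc

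Probe sets of a gene did not always tell the same story. Of the 30 genes 15 had more than 1 probe set, and in 5 of these (Acad10, Acadl, Crat, Etfdh and Hadhb) they differed in sign. The probe sets that went down lay at low levels for Acadl (3.33 to 3.79), Etfdh (2.18 to 2.64, below the level filter) and Hadhb (4.23 to 4.93). With probe sets tested one by one, 49 of the 51 passed the level filter, 42 of them had a difference above 0, and 2 were called, those of Acad8 and Acadsb, against 6.03% of all 23408.

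**Figure D4:**
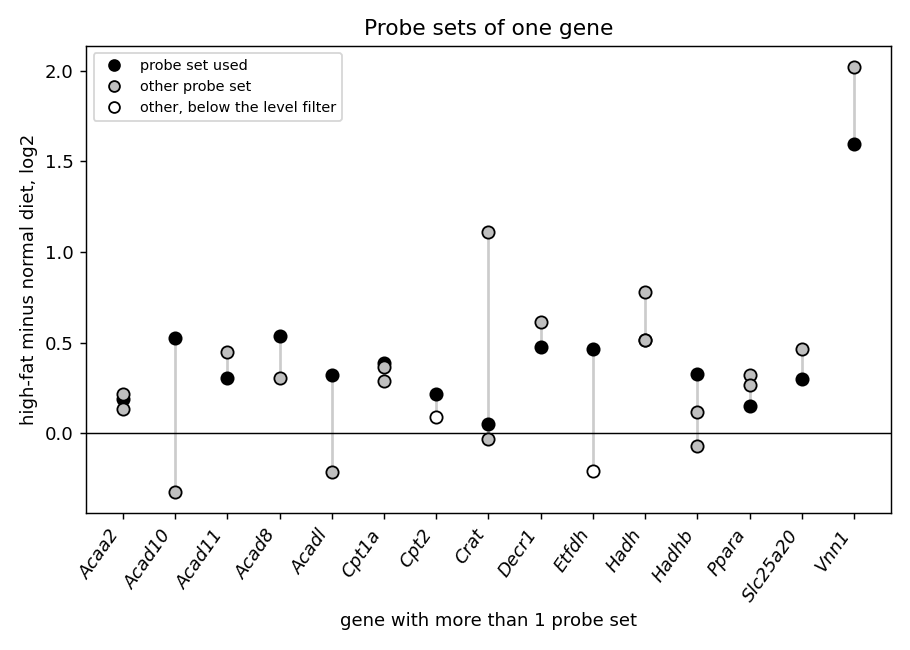
Difference between diets (log2) of each probe set of the 15 genes with more than 1, with the probe set used in black, others in grey and those below the level filter in white. Crat and Acad10 show the widest disagreement, with 0.05 and 1.11 for Crat and 0.52 and -0.32 for Acad10.

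Other genes around the pathway were grouped in lists. Of 10 tested genes listed for fatty acid activation or acyl-CoA hydrolysis 3 rose, 0 fell and 7 were not called. Not all of these 10 act at mitochondria. Of all genes 5.87% were called higher and 1.73% lower. The median difference of the 10 was 0.66 (0.45 without normal diet 3) against 0.003 over all genes. Acot9, a mitochondrial acyl-CoA thioesterase gene, lay at 3.86, 4.61 and 4.74 on the normal diet and at 6.59, 6.28 and 6.31 on the high-fat diet. It rose by 1.99 ± 0.23 on the log2 scale (adjusted p = 0.00591), and normal diet 3 was its highest normal diet array. Acot13, another thioesterase gene, rose 2.03-fold and Acsl3, an acyl-CoA synthetase gene, 2.64-fold. Acsl3 differed by 0.84 when its probe sets were averaged. Without high-fat 1 or 2 the count was 2 and without high-fat 3 it was 1, as Acot13 was lost in each case and Acsl3 without high-fat 3.

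Of 20 further mitochondrial acyl-CoA enzymes, mostly of amino acid breakdown, 2 rose, 0 fell and 18 were not called. Of all genes 5.87% were called higher. The median difference of the 20 was 0.27, or 0.13 without normal diet 3, which was the lowest array in 17. The genes that rose were Acad9, which encodes an acyl-CoA dehydrogenase that also serves complex I assembly (1.72-fold, 0.79 ± 0.18, adjusted p = 0.0398), and Pcca, a propionyl-CoA carboxylase subunit gene (0.59 ± 0.13, adjusted p = 0.0404). Neither was called after quantile normalization or cyclic loess, without normal diet 1, without any of the high-fat arrays or with a replicate block. Array weights also ended the Acad9 call (adjusted p = 0.0507), and averaging probe sets lowered Pcca to 0.23 and ended its call (adjusted p = 0.128). Acat1 and Hibch, named here after their values were seen, were called in addition without normal diet 2. Of 11 regulators 1 rose, against 5.87% of all genes, and 10 were not called (median 0.48, or 0.22 without normal diet 3). The gene that rose was Sirt5, a mitochondrial deacylase gene (1.49-fold, 0.58 ± 0.10, adjusted p = 0.0215), which differed by 1.20 when probe sets with a suffix were left out. For Sirt5, leaving out high-fat 1, 2 or 3 raised the adjusted p to 0.0924, 0.0580 and 0.0976, quantile normalization to 0.0508 and a replicate block to 0.0559. Ppargc1b, a coactivator gene, was called without normal diet 1 or 3 and with array weights, and Acacb, the gene of the acetyl-CoA carboxylase that makes malonyl-CoA at mitochondria, without normal diet 2. Tfam, a mitochondrial DNA transcription factor gene, was called with array weights or median centring. These names were chosen after their values were seen.

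The carnitine supply was listed with 5 genes, of which limma called 0. At an unadjusted p below 0.05 there was 1, against 27.6% of all genes. The median difference was 0.12, and leaving out normal diet 3 or 1 moved it to 0.006 or 0.41. Tmlhe and Bbox1, which encode the first and the last enzyme of carnitine synthesis, differed by 0.53 ± 0.19 and 0.51 ± 0.23 (adjusted p = 0.128 and 0.201), and Bbox1 differed by 0.22 without normal diet 3. Tmlhe was called without normal diet 2 (0.73). Of 9 pyruvate dehydrogenase regulators, subunits and uncoupling proteins 0 were called (6 at an unadjusted p below 0.05, against 27.6% of all genes). Pdk2, another kinase gene, differed by 0.67 ± 0.24 and Ucp3 by -0.25 ± 0.09 (adjusted p = 0.124 and 0.132). Pdk2 was called without normal diet 1 (0.91). Without normal diet 3, Pdk1 was called higher (0.52) and Pdp2 lower (-0.56), both named after their values were seen. Of 16 PPARalpha targets outside the pathway 1 rose and 15 were not called (median 0.40, and 0.14 without normal diet 3). Of all genes 5.87% were called higher. Fgf21, a hormone gene, rose 2.70-fold (1.43 ± 0.18, adjusted p = 0.00731). It lay at 4.61, 4.24 and 4.08 on the normal diet, near the array medians of 3.96 to 4.05. On the high-fat diet it lay at 6.01, 5.62 and 5.60. Acaa1b, a peroxisomal thiolase gene, was called in addition without normal diet 2 or after quantile normalization, and Pex11a, a peroxisome division gene, with a replicate block. Both Acaa1b and Pex11a were named after their values were seen.

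Markers of mitochondrial content were set beside the pathway. Of 13 such genes, from the citric acid cycle, the outer membrane and the import and folding machinery, 0 rose, 1 fell and 12 were not called. Of all genes 5.87% were called higher and 1.73% lower. The median difference of the 13 was 0.12, and 0.13 without normal diet 3. The gene that fell was Fh1, which encodes fumarate hydratase, at 11.53, 11.78 and 11.49 on the normal diet and 11.10, 11.05 and 11.05 on the high-fat diet (-0.53 ± 0.11, adjusted p = 0.0325). The Fh1 call was lost when normal diet 2 was left out (adjusted p = 0.0594), when high-fat 1, 2 or 3 was left out (adjusted p = 0.107, 0.120 and 0.119) and when a replicate block was added (adjusted p = 0.0639). Cs, the citrate synthase gene, was called higher when probe sets with a suffix were left out (0.83, adjusted p = 0.00823) or probe sets were averaged (0.62), and Vdac2, an outer membrane channel gene, with averaging (0.39) or median centring (0.43). The chaperone genes Hspd1 and Hspe1 were called lower after cyclic loess (-0.52 and -0.55), and Hspd1 also with array weights (-0.46). These 4 genes were named after their values were seen. Normal diet 3 was the lowest array in 5 of these 13 genes, in 26 of the 30 oxidation genes and in 14 of the 16 PPARalpha targets. These shares were not tested against each other.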

How the data were processed

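Per the submitters' processing notes, the deposited values are log2 expression levels made by the authors with RMA in Affymetrix Expression Console 1.0. RMA compresses differences near background. Control probe sets were left out (64 of 45101). Of the rest, 34945 carried 1 gene symbol in the platform annotation, 932 several and 9160 none. Symbols were looked up by gene ID in a gene table of GRCm38.p6, and 0 changed. Promoter windows came from RefSeq.

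Where several probe sets shared a gene, the brightest on average was taken. Genes entered the test when 3 or more arrays exceeded their own 40th percentile. Groups came from the sample titles. limma 3.58.1 in R 4.3.3 fitted diet over all 14071 genes (lmFit and eBayes, two-sided, Benjamini-Hochberg adjustment), and a separate fit took all probe sets. The script was tested on simulated data. No list test was run. The number of arrays limits the precision. Python 3.11.15 with pandas 2.3.3 and matplotlib 3.10.9 produced tables and figures.

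The genes and lists were chosen with earlier results of these data known. All measured genes of the list are named. Of the further pathway lists up to 4 called genes are named or, where none was called, the 2 with the smallest p. Other genes named from these lists were chosen after their values were seen. Nothing in the labels says how mice were assigned to pools. Alternatives were other level filters, variance models, scalings, probe set choices and a stricter threshold, array weights, each array left out and a replicate block.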

Additional observations from a re-analysis of the deposited data

How the results depend on the processing

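Over 17 alternatives 26 of the 30 oxidation genes kept their direction in each alternative that gave a value, and 4 did not. The other level filters, trend and robust variance, the stricter threshold and the replicate block leave each difference unchanged. No reversal was possible under those, so they say nothing about direction. Acadvl turned to -0.039 after quantile normalization and -0.069 after cyclic loess. Crat turned to -0.085 and -0.074 with these scalings and to -0.041 without high-fat 1. Without normal diet 3 Cpt2 and Ppara turned to -0.043 and -0.038. With 1 array left out at a time the differences ran from -0.043 to 0.41 for Cpt2, -0.041 to 0.12 for Crat and -0.038 to 0.31 for Ppara. At an adjusted p below 0.01, 172 genes were called in all and 0 of the 30 (limma, 14 at an unadjusted p below 0.05). With a replicate block limma called 768 genes in all and 0 of the 30 (16 at an unadjusted p below 0.05). Leaving out 1 array at a time gave 169 to 1245 called genes, with 272, 217 and 169 without high-fat 1, 2 and 3, and 0 to 6 called among the 30. The 0 came without normal diet 1 (13 at an unadjusted p below 0.05) and without any of the high-fat arrays (8 each), and the 6 without normal diet 2. The level filter and array weights gave 3 to 4 called, and the 3 scalings, trend and robust variance and both other choices of probe set gave 2 each. When probe sets with a suffix were left out, 26 of the 30 could be tested. The deviations of same-numbered arrays from their group means correlated at -0.012, 0.036 and 0.10 across genes. Those of differently numbered arrays correlated at -0.085 to 0.079. Values this small cannot settle whether same-numbered arrays were processed together.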
